A study of Mus musculus with 21 samples.

Results

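The genes described here encode potassium channels and HCN channels of the mouse. They were taken as every feature whose symbol is Kcn followed by letters and a number, or Hcn followed by a number, with the antisense transcript Kcnq1ot1 left out. The rule found 94 genes among the 39008 features listed for cortical nuclei and 66 among the 31553 listed for Neuro2a, a mouse neuroblastoma cell line. All 66 also stood in the nuclei table, and 28 stood in the nuclei table alone.

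The study concerned activation of Scn2a, the gene of the sodium channel Nav1.2, in mice with 1 working copy of the gene and in a cell line. CRISPR activation (CRISPRa) used a guide RNA with sadCas9-VP64, a nuclease-dead Cas9 fused to a transcriptional activator. Het CRISPRa mice were C57BL/6J Scn2a heterozygotes whose medial prefrontal cortex had been injected 4 weeks before use with 500 nL of rAAV, guide and activator vectors mixed 1:1 (n = 3). Het mice carried the same genotype and WT mice were wild type (n = 3 each); the labels do not say whether these 6 mice received any injection, and give no age or sex. RNA came from NeuN+ nuclei, a marker of neurons, sorted from 200 mg of cortex, so the material was not limited to transduced cells. Neuro2a cells received 750 ng of guide plasmid and 750 ng of sadCas9-VP64 plasmid (CRISPRa, n = 6) or sadCas9-VP64 alone (VP64 only, n = 6). Their library names fall into a set 7 (replicates 1 to 3 of each group) and a set 8 (replicates 4 to 6), and the labels do not say what a set is. The promoters that drive the transgenes are not given in the sources used here.

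Potassium channels let potassium out of the cell and so oppose depolarisation. Voltage-gated Kv channels shape the spike and repetitive firing, calcium- and sodium-activated channels produce after-hyperpolarisations, and two-pore (K2P) and inward-rectifier (Kir) channels set the resting potential. HCN channels are the exception in this group of genes: they pass a mixed sodium and potassium current on hyperpolarisation and serve pacemaking and dendritic integration in cortical pyramidal cells.

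Values are CPM as deposited, the reads of a gene scaled to a common total per library, and a level compared between genes is CPM per kb of exon. A log2 difference is on the log2(CPM + 0.5) scale, with its standard error, and understates the change of genes with few reads. A gene was tested where it reached 0.5 CPM in at least 3 nuclei libraries or 6 Neuro2a libraries, and called where its limma p, adjusted by Benjamini-Hochberg over all genes tested, was under 0.05. By this rule 76 of the 94 genes were tested in nuclei and 32 of the 66 in Neuro2a. The other genes never exceeded 0.836 CPM in nuclei or 1.07 CPM in Neuro2a. No source says that replicates of a group came from separate cultures or batches of tissue beyond their numbering, so p-values measure the spread between these libraries, which may be partly technical.

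Depth, worked out from the CPM value of 1 read, was 15.5 to 20.1 M reads in nuclei and 15.5 to 21 M reads in Neuro2a. Fewer features were above 0 in Het nuclei (25410 to 25801) than in Het CRISPRa nuclei (26118 to 28228) or in WT nuclei (28109 to 28272). The activator transcript lay at 4.09 to 7.12 CPM in Het CRISPRa nuclei and at 0 in Het and WT nuclei. In Neuro2a of set 7 it ranged over 1683 to 2154 CPM for CRISPRa, against 2497 to 2646 CPM for VP64 only. In set 8 it ranged over 564 to 632 CPM for CRISPRa, against 318 to 370 CPM for VP64 only. The guide vector's reporter was read in all CRISPRa libraries and at 0 in VP64 only. Slc17a7, a marker of cortical excitatory neurons, stood at 935 to 1066 CPM in Het CRISPRa, 901 to 925 in Het and 895 to 1001 in WT nuclei. Aqp4, an astrocyte marker, stayed between 0.969 and 1.67 CPM in these 9 libraries. It was 1 of 8 listed astrocyte markers. Their sum was far higher, at 251 to 280 CPM in Het CRISPRa, 231 to 289 in Het and 252 to 277 in WT.

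Scn2a itself was higher in CRISPRa than in VP64-only Neuro2a: its lowest, median and highest values were 4.09, 4.54 and 5.33 CPM in CRISPRa, against 2.84, 3.10 and 3.46 CPM in VP64 only, and the groups did not overlap (log2 difference 0.50 ± 0.10, limma adjusted p = 0.00531). Within set 8 alone the difference was 0.47 with adjusted p = 0.0533. In nuclei it was 258, 291 and 265 CPM in Het CRISPRa, 203, 226 and 260 CPM in Het, and 230, 255 and 266 CPM in WT. Het and WT overlapped, and so did Het CRISPRa and Het, so Scn2a reads did not separate the genotypes; which part of the gene the Het allele lacks is not given in the sources used here. The differences were -0.13 for Het minus WT (limma adjusted p = 0.875), 0.25 for Het CRISPRa minus Het (adjusted p = 0.810) and 0.12 for Het CRISPRa minus WT (adjusted p = 1).

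The Neuro2a results below turn on 5 channel genes, and RefSeq (GRCm38.p6) gives a transcription start for 4 of them: Kcnn3, Kcnq5, Kcnh2 and Hcn4. The 150 bases before each start are shown for these 4 genes, which differed in direction. The guide sequence is not given in the sources used here, and binding of the guide or activator to these windows was not tested. Capitals mark matches to GGGCGG, the core of the GC box, and the search covered both strands for GGGCGG and for the TATA box TATAAA.
Kcnn3: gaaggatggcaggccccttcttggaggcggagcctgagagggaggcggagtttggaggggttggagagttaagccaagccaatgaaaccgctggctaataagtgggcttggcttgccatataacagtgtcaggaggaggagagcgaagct
Kcnq5: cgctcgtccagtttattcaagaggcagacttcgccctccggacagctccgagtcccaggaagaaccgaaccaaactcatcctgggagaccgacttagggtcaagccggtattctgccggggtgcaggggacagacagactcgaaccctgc
Kcnh2: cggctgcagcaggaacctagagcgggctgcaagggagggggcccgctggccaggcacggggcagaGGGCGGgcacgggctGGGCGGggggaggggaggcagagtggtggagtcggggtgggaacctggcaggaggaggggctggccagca
Hcn4: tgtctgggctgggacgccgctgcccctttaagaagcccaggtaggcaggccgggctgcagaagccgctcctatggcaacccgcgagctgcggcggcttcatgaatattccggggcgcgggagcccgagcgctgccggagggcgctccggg
These windows lie at chr3:89520014-89520163 on the plus strand for Kcnn3, chr1:21961943-21962092 on the minus strand for Kcnq5, chr5:24329592-24329741 on the minus strand for Kcnh2 and chr9:58822799-58822948 on the plus strand for Hcn4. Kcnq5 has 2 RefSeq starts, and the window shown is that of the start at the gene's annotated 5′ end. The Kcnh2 start lies inside the annotated gene. GGGCGG occurred 2 times in the Kcnh2 window and in none of the other windows, against 28.6% of 32851 mouse start sites with at least 1 match; TATAAA occurred in none of the 4 windows and in 7.57% of start sites. The share of G and C bases was 75.3% for Kcnh2, 70.7% for Hcn4, 59.3% for Kcnq5 and 56.7% for Kcnn3, against a median of 54% over all start sites. These counts of letters describe the windows only. The fifth gene is Hcn3.

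In cortical nuclei the channel genes with the highest levels per kb were a Kv4 auxiliary subunit and a sodium-activated channel. Kcnip2 (KChIP2, an auxiliary subunit of Kv4) stood at 101 CPM per kb in Het CRISPRa, 90.4 in Het and 96.6 ± 12.9 in WT nuclei (SD, n = 3), and Kcnt1 (Slack, activated by sodium) at 96.9 in Het CRISPRa, 104 in Het and 92.9 ± 4.27 in WT. These neighbours in the order lay within their spread of each other. Also high were Kcnh3 (an ELK channel of forebrain neurons), at 51.2 in Het CRISPRa, 49.5 in Het and 47.0 in WT, and Kcnj9 (the GIRK3 subunit, which G-protein-coupled receptors open), at 49.0 in Het CRISPRa, 43.5 in Het and 45.8 in WT.

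Within the voltage-gated classes Kcnb2 (Kv2.2, a delayed rectifier) stood at 1.33 CPM per kb in Het CRISPRa, 1.16 in Het and 1.26 in WT nuclei. Of the Kv3 genes, whose channels allow fast spiking, Kcnc2 stood at 19.7, 17.6 and 19.2 in the same groups, and Kcnc1 at 15.3, 15.1 and 16.2. The Kv4 genes, which carry the transient A-type current, ranked Kcnd3 (9.40, 7.39 and 9.90), Kcnd1 (6.28, 5.48 and 5.83) and Kcnd2 (5.09, 4.43 and 6.26). Among the Kv1 genes Kcna2 (Kv1.2, placed on axons) led at 9.20 in Het CRISPRa, 12.8 in Het and 10.6 in WT, ahead of Kcna6 and Kcna4, which both stayed between 2.32 and 4.99. Of the Kv7 genes Kcnq5 stood at 12.7, 10.4 and 12.6, and Kcnq3 at 11.3, 9.02 and 11.7. Kcnh4, another ELK gene, stood at 23.6, 21.7 and 21.7, and Kcnh7, of the ERG branch, at 7.11, 5.47 and 6.71. The silent subunits, which form channels only together with Kv2 subunits, were led by Kcnf1 (6.87, 6.13 and 7.75), Kcng1 (5.86, 4.60 and 6.17) and Kcnv1 (5.34, 5.17 and 5.62).

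Outside the voltage-gated classes, Kcnk9 (TASK-3, an acid-sensitive leak channel) reached 42.0 CPM per kb in Het CRISPRa, 37.2 in Het and 41.0 in WT nuclei. It led Kcnk1 (TWIK-1), at 15.0, 14.6 and 17.5 in the same groups, and Kcnk4 (TRAAK), at 9.91, 9.18 and 9.04. Kcnj3 (GIRK1) stood at 20.3, 20.7 and 20.5, and Kcnj4 (Kir2.3) at 14, 12.7 and 16.9. Kcnt2 (Slick), at 14.3, 12.0 and 13.8, and Kcnma1 (the BK channel, opened by calcium and voltage), at 13.5, 11.1 and 14.2, followed Kcnt1 among the Slo genes. Kcnn2 (SK2, opened by calcium alone) led its class at 11.5, 13.7 and 13.1, with Kcnn3 (SK3) and Kcnn1 (SK1) between 1.21 and 2.29. Hcn2 stood at 17.3, 16.2 and 16.2, and Hcn3 at 14.7, 14 and 12.7. Kcnip3, another KChIP, stood at 45.9, 41.7 and 44.9, and Kcnab2, a β subunit of Kv1, at 31.6, 29.5 and 33.7.

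In Neuro2a cells fewer channel genes were tested than in nuclei, and 1 gene stood far above the others per kb. Kcnh2 (ERG1, whose human counterpart carries the cardiac rapid delayed rectifier) stood at 29.9 ± 6.46 CPM per kb in CRISPRa and 32.8 ± 1.04 in VP64-only cells (SD, n = 6 each). Kcnab2 followed at 7.18 in CRISPRa and 7.39 in VP64 only, Hcn2 at 5.83 in CRISPRa and 5.63 in VP64 only, Kcnip3 at 3.31 in CRISPRa and 3.36 in VP64 only, and Kcnk3 (TASK-1) at 2.54 in CRISPRa and 2.74 in VP64 only. The other channel genes stayed at or below 1.56 CPM per kb in both groups. No Kv1 gene reached the level for testing: Kcna4, Kcna6 and Kcna7 together summed to 0.105 CPM per kb in CRISPRa and 0.162 in VP64 only. Kcnt1 and Kcnh3, both near the top of the order in nuclei, were also below the level for testing in Neuro2a. Nuclei and cells were separate tables, so these levels stand side by side without a test.

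**Figure D1:**
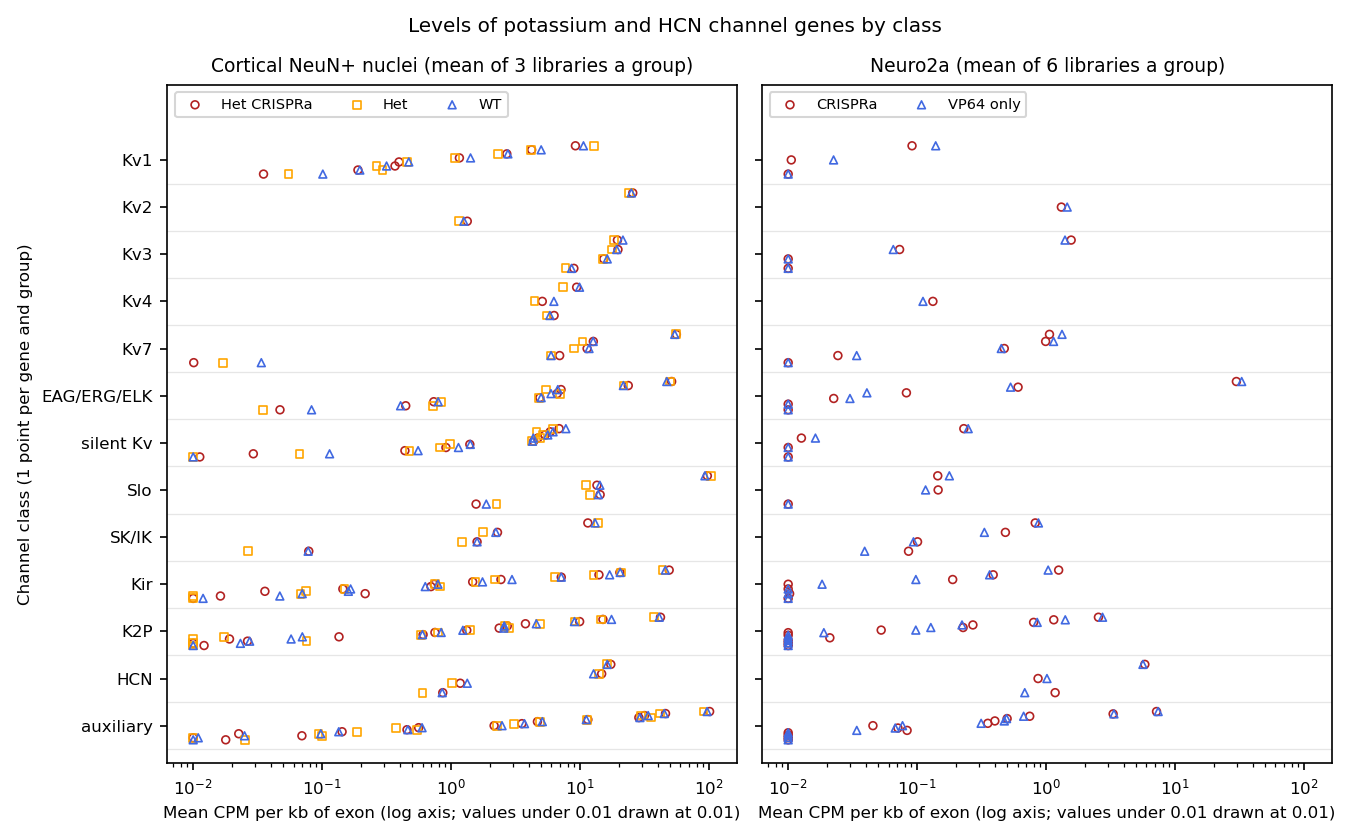
Mean CPM per kb of exon on a log axis for each potassium or HCN channel gene, by channel class, with 1 point per gene and group. The left panel holds cortical nuclei (Het CRISPRa, Het, WT; 3 libraries each), where the points of the 3 groups nearly coincide, and the right panel holds Neuro2a (CRISPRa, VP64 only; 6 libraries each), where Kcnh2 stands apart from all other genes.

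Most class sums differed little between the mouse groups, and the sums were not tested. The Slo genes summed to 126 ± 9.42 CPM per kb in Het CRISPRa, 129 ± 6.69 in Het and 123 ± 3.70 in WT nuclei (SD, n = 3 each), the EAG, ERG and ELK genes to 94.7 ± 7.41, 90.1 ± 3.40 and 87.6 ± 12.0 in the same groups, and the HCN genes to 34.0 ± 2.39, 31.8 ± 5.69 and 31.1 ± 0.0974. The Kv4 and Kv1 sums differed more. The Kv4 sum was 20.8 ± 3.45 in Het CRISPRa, 17.3 ± 3.02 in Het and 22.0 ± 0.380 in WT. The Kv1 sum was 18.25 ± 1.57 in Het CRISPRa, 21.5 ± 1.35 in Het and 20.9 ± 1.26 in WT. In Neuro2a the EAG, ERG and ELK sum was 30.6 ± 6.56 in CRISPRa and 33.4 ± 1.04 in VP64 only, and the HCN sum was 7.87 ± 1.05 in CRISPRa and 7.33 ± 1.28 in VP64 only.

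In Neuro2a, CRISPRa cells had more Hcn3 and Kcnn3 transcript and less Kcnq5 transcript than VP64-only cells, and no other channel gene was called. These 3 genes were 9.38% of the 32 tested, against 15.0% of the 14398 genes tested in all, where 10.0% were called higher and 5.02% lower. The 2 higher genes were 6.25% of the channel genes and the 1 lower gene 3.12%. With the library set as a covariate the same 3 channel genes were called, while the calls over all 14398 genes rose to 3593 higher and 2092 lower. Of the 32 genes 16 lay above 0 and 16 below, with a median log2 difference of 0.0128, against 0.0551 over all genes. Across all genes the split was 1443 higher and 723 lower as deposited, but 1085 and 1078 after median-of-ratios scaling, and 1058 and 1015 after quantile scaling.

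Hcn3 (ENSMUSG00000028051), a slowly activating HCN channel with little response to cyclic AMP, had a lowest, median and highest value of 3.71, 4.84 and 5.94 CPM in CRISPRa cells, against 2.11, 2.61 and 4.48 CPM in VP64-only cells. One VP64-only library, replicate 5 at 4.48 CPM, lay inside the CRISPRa range, and the groups overlapped through it. The means were 4.88 ± 0.727 CPM in CRISPRa cells and 2.84 ± 0.833 CPM in VP64-only cells, a ratio of 1.72 (log2 difference 0.71 ± 0.16, limma adjusted p = 0.00871; exact two-sided permutation p = 0.00433). By set the values were 5.94, 5.22 and 4.72 CPM in CRISPRa against 2.49, 2.11 and 2.54 CPM in VP64 only of set 7, and 4.91, 4.77 and 3.71 CPM in CRISPRa against 2.67, 4.48 and 2.72 CPM in VP64 only of set 8. The groups were apart in set 7 (log2 difference 1.00, limma adjusted p = 0.000143) and overlapped in set 8 (0.41, adjusted p = 0.157). Hcn3 lies at chr3:89146074-89160196 on the minus strand of GRCm38 and overlaps Pklr on the opposite strand, which reached at most 0.170 CPM in Neuro2a; whether counting used strand is not given in the sources used here.

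Kcnn3 (ENSMUSG00000000794), the small-conductance calcium-activated channel SK3, had 4.22, 5.13 and 6.02 CPM as lowest, median and highest value in CRISPRa cells, against 2.696, 3.62 and 4.00 CPM in VP64-only cells. Every CRISPRa library lay above every VP64-only library. It averaged 5.05 ± 0.698 CPM in CRISPRa cells and 3.47 ± 0.534 CPM in VP64-only cells, a ratio of 1.46 (log2 difference 0.49 ± 0.13, limma adjusted p = 0.0202; exact two-sided permutation p = 0.00216, the smallest that 6 against 6 can give). Set 7 alone gave 0.40 (adjusted p = 0.0672) and set 8 alone 0.58 (adjusted p = 0.0185). With quantile scaling the difference was 0.37 (adjusted p = 0.0686), and with no filter on low values adjusted p was 0.0666. The gene spans chr3:89520164-89675132 on the plus strand of GRCm38.

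Kcnq5 (ENSMUSG00000028033), the Kv7.5 subunit of the M-current that restrains repetitive firing, was the gene that fell. Its lowest, median and highest values were 6.77, 8.25 and 8.89 CPM in CRISPRa cells, against 9.16, 10.2 and 11.2 CPM in VP64-only cells, with no overlap. It averaged 8.16 ± 0.753 CPM in CRISPRa cells and 10.2 ± 0.694 CPM in VP64-only cells, a ratio of 0.7995 (log2 difference -0.31 ± 0.088, limma adjusted p = 0.0321; exact two-sided permutation p = 0.00216). Set 7 alone gave -0.41 (adjusted p = 0.0133) and set 8 alone -0.20 (adjusted p = 0.241). The call was lost when any of CRISPRa replicates 1, 2 and 3 or VP64-only replicates 1, 2, 5 and 6 was left out (adjusted p 0.0563 to 0.0711), and with no filter on low values (adjusted p = 0.0617). The gene spans chr1:21398403-21961942 on the minus strand of GRCm38.

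Kcnn3, higher, and Kcnq5, lower, were the 2 channel genes whose groups did not overlap, which is 6.25% of the 32, against 8.75% of all genes tested (5.74% higher and 3.01% lower). In the authors' deposited table, which lists 45 of the channel genes for this comparison, the same 3 genes were called, with log2 fold changes of 0.72 for Hcn3 (adjusted p = 0.00191), 0.48 for Kcnn3 (adjusted p = 0.0212) and -0.38 for Kcnq5 (adjusted p = 0.00332).

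Among the channel genes that did not pass the test, the next in order of p were 2 genes with few reads. Kcnj9 averaged 0.808 ± 0.263 CPM in CRISPRa cells and 0.419 ± 0.276 CPM in VP64-only cells (log2 difference 0.53 ± 0.21, limma adjusted p = 0.102), and passed only without VP64-only replicate 3 (0.67, adjusted p = 0.0365). Kcnk6 (TWIK-2) averaged 0.943 ± 0.389 CPM in CRISPRa cells and 0.530 ± 0.220 CPM in VP64-only cells (0.47 ± 0.19, adjusted p = 0.112). Kcnj12 (Kir2.2) stood at 0.25 (adjusted p = 0.230), Kcnk1 at -0.26 (adjusted p = 0.293) and Kcnma1 at -0.25 (adjusted p = 0.454). The abundant genes Kcnab2 and Hcn2 differed by -0.039 and 0.051.

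**Figure D2:**
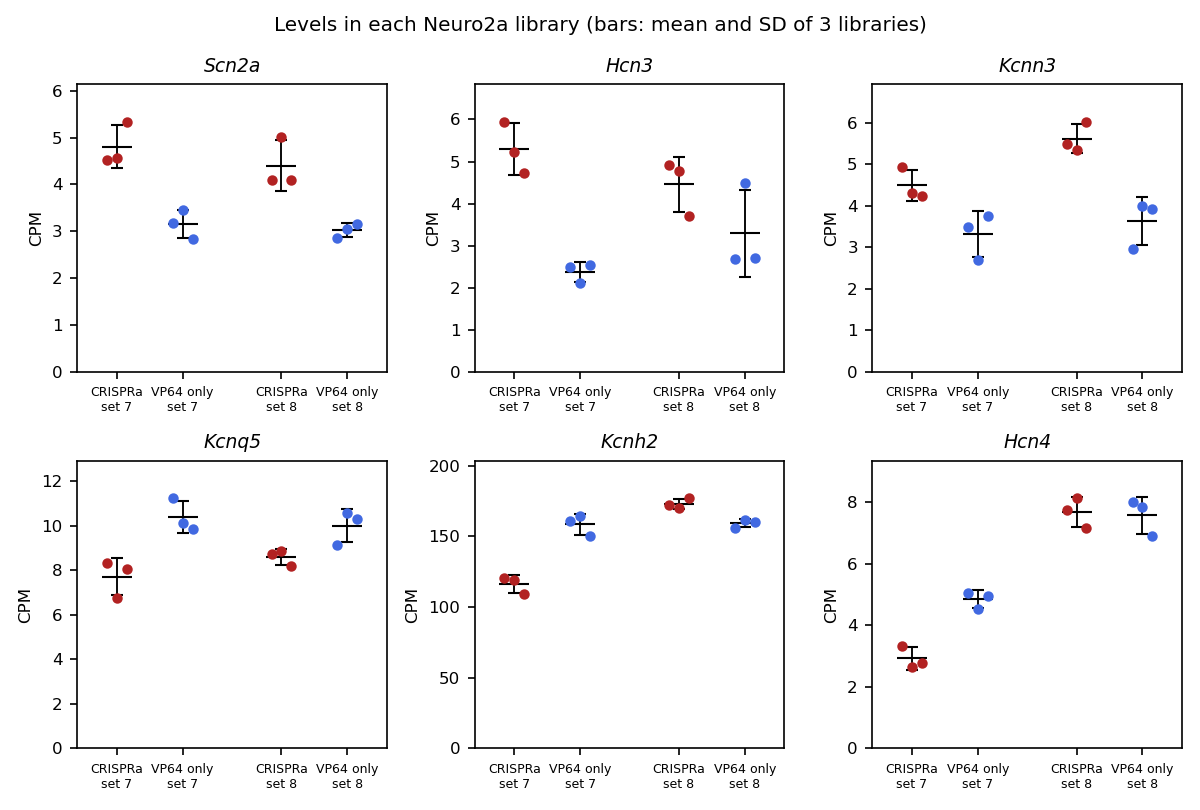
CPM in each Neuro2a library for Scn2a and 5 channel genes, CRISPRa left of VP64 only within set 7 and within set 8, with mean and SD of 3 libraries. Kcnh2 in CRISPRa cells lies below VP64 only in set 7 and above it in set 8.

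For several channel genes the difference between CRISPRa and VP64 only was not the same in both library sets. The difference between sets was tested as an interaction, the change in set 8 minus the change in set 7. It was called for 4 of 32 channel genes (12.5%), 2 higher and 2 lower, and Kcnh2 and Hcn4 were those called higher. Over all genes tested 21.8% were called, 9.42% higher and 12.3% lower. The direction of this split changed with the scaling: 1357 higher and 1775 lower as deposited, 1760 and 1326 after median-of-ratios scaling, and 1534 and 1428 after quantile scaling. The activator transcript also differed between the sets in opposite directions, lower in CRISPRa than in VP64 only in set 7 and higher in set 8, and its part in these results was not tested.

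Kcnh2 (ENSMUSG00000038319), the channel gene with the highest level in these cells, moved furthest beyond its spread. In set 7 it had 121, 119 and 109 CPM in CRISPRa cells, against 161, 164 and 150 CPM in VP64-only cells. In set 8 it had 172, 170 and 177 CPM in CRISPRa cells, against 156, 162 and 160 CPM in VP64-only cells. The groups were apart in both sets and in opposite directions, while the VP64-only means were 159 ± 7.38 and 159 ± 3.01 CPM in sets 7 and 8. The change was -0.45 in set 7 (limma adjusted p = 5.18e-06) and 0.12 in set 8 (adjusted p = 0.0423), and their difference was 0.56 ± 0.065 (adjusted p = 4.84e-06). In set 8 the change was 0.094 after median-of-ratios and 0.091 after quantile scaling and no longer called. Over both sets together Kcnh2 differed by -0.16 (adjusted p = 0.376).

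Hcn4, the HCN channel best known from cardiac pacemaker cells and thalamus, fell in set 7 alone. There it had 3.34, 2.64 and 2.78 CPM in CRISPRa cells, against 5.05, 4.51 and 4.96 CPM in VP64-only cells, without overlap (-0.65, limma adjusted p = 0.00394). In set 8 it had 7.74, 8.11 and 7.17 CPM in CRISPRa cells, against 8.01, 7.82 and 6.89 CPM in VP64-only cells, which overlapped (0.019, adjusted p = 0.939). The difference between sets was 0.67 ± 0.20 (adjusted p = 0.0193), and over both sets the change was -0.31 (adjusted p = 0.490). Within VP64-only cells the mean was 4.84 ± 0.289 CPM in set 7 and 7.58 ± 0.601 CPM in set 8.

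For the other genes with the largest interactions the adjusted p was above 0.05. Hcn3 differed between sets by -0.59 ± 0.26 (adjusted p = 0.116), Kcnj12 by -0.42 (adjusted p = 0.223), Kcnmb4 (a β subunit of the BK channel) by -0.62 (adjusted p = 0.185), Kcnq5 by 0.21 (adjusted p = 0.406), Kcnab2 by 0.16 (adjusted p = 0.238) and Kcnab1 by 0.28 (adjusted p = 0.529). Taken 1 set at a time, 6 of 28 channel genes were called in set 7, 3 higher and 3 lower, against 45.9% of all genes tested (29.7% higher and 16.2% lower). In set 8 it was 3 of 31, 2 higher and 1 lower, against 24.1% (13.9% higher and 10.2% lower). The set 7 split became 2 higher and 4 lower once median-of-ratios scaling was used, and 1 higher and 5 lower with quantile scaling.

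In cortical nuclei no channel gene was called in any of the 3 comparisons. Those comparisons share libraries, so their results are not independent of each other. Het against WT called 0% of 18967 genes tested, Het CRISPRa against Het 0.0422% and Het CRISPRa against WT 0.00527%. In bulk nuclei, fewer cells of a type and less RNA per cell cannot be told apart. With 3 libraries against 3 an exact permutation test cannot give a p below 0.1.

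Het nuclei had lower mean levels than WT nuclei for most channel genes, without any single gene passing the test. Of the 76 tested genes 53 (69.7%) lay below 0, against 60.3% of all genes tested, with medians of -0.11 and -0.05. After median-of-ratios scaling the shares were 63.2% of channel genes and 50.9% of all genes, and without WT replicate 3 they were 60.0% and 60.2%. At an unadjusted p under 0.05 stood 8 channel genes (10.5%), against 5.01% of all genes, but single libraries decided this count. It was 3 (3.95%, against 4.09% of all genes) without Het replicate 2, 4 (5.26%, against 3.51%) without Het replicate 1, 5 (6.67%, against 3.31%) without WT replicate 2 and 19 (25.0%, against 14.03%) without Het replicate 3. The groups did not overlap for 17 of the 76 (22.4%), against 10.7% of all genes: 3 were higher (3.95%, against 3.37%) and 14 lower (18.4%, against 7.30%). Among the 14 were Kcnd2, Kcnd3, Kcnf1, Kcng1, Kcns2, Kcnh7, Kcnk1, Kcnk9, Kcnj9, Kcnj10, Kcnq5, Kcnn1 and Kcnip3, and the 3 were Kcnh2, Kcnh5 and Kcna2. Kcnj10 reached 0.5 CPM in WT alone, so it was tested only through the group where it was high.

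By class, all 3 Kv4 genes and all 4 Kv3 genes lay below 0 in Het against WT nuclei, also under median-of-ratios and quantile scaling. The class medians were -0.43 for Kv4 and -0.14 for Kv3. Kcnd2 (Kv4.2, the dendritic A-type channel) had 17.1, 22.3 and 29.1 CPM in Het nuclei, against 31.6, 30.3 and 34.9 CPM in WT nuclei; every Het library lay below every WT library, the highest by a small margin (-0.52 ± 0.17, limma adjusted p = 0.875). Kcnd3 (Kv4.3) had 61.9, 70.0 and 80.6 CPM in Het, against 93.8, 98.0 and 92.8 CPM in WT (-0.43 ± 0.18, adjusted p = 0.875). Summed inhibitory neuron markers, cells in which Kv3 channels are known to be high, were 248 to 408 CPM in Het and 345 to 390 CPM in WT nuclei, with 0 of 8 called; their part in the Kv3 values was not tested.

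Among the silent subunits 6 of 8 tested genes lay below 0 in Het, with a class median of -0.26. Kcng1 had 21.7, 18.1 and 22.3 CPM in Het, against 25.5, 29.3 and 28.6 CPM in WT (-0.42 ± 0.15, limma adjusted p = 0.875). In the Kv7 class Kcnq5 had 82.4, 76.1 and 82.0 CPM in Het, against 90.5, 92.8 and 108 CPM in WT, and the groups were apart (-0.27 ± 0.10, adjusted p = 0.875). Kcnq3 (Kv7.3, a subunit of the M-channel) had 93.5, 129 and 176 CPM in Het, against 167, 176 and 174 CPM in WT (-0.42 ± 0.18, adjusted p = 0.875); Het replicate 3 lay among the WT values. As deposited, the classes with a median above 0 were the EAG, ERG and ELK genes (5 of 7 above 0, median 0.043) and the K2P genes (5 of 9 above 0, median 0.011). The Slo median was -0.024 as deposited but 0.027 under median-of-ratios scaling.

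The genes that stood higher in Het than in WT nuclei were few. Kcna2 had 157, 168 and 133 CPM in Het, against 130, 126 and 124 CPM in WT (0.26 ± 0.11, limma adjusted p = 0.875), so that all Het libraries lay above all WT libraries. Kcnh5 (EAG2) had 3.26, 2.30 and 3.28 CPM in Het, against 1.55, 1.52 and 1.87 CPM in WT (0.67 ± 0.24, adjusted p = 0.875), also apart but at few reads. Kcnh2 had 29.5, 31.1 and 41.6 CPM in Het, against 28.3, 29.0 and 29.1 CPM in WT (0.22). Kcnab3, a β subunit of Kv1, differed by 0.29 and Kcnt1 by 0.16, and their groups overlapped.

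**Figure D3:**
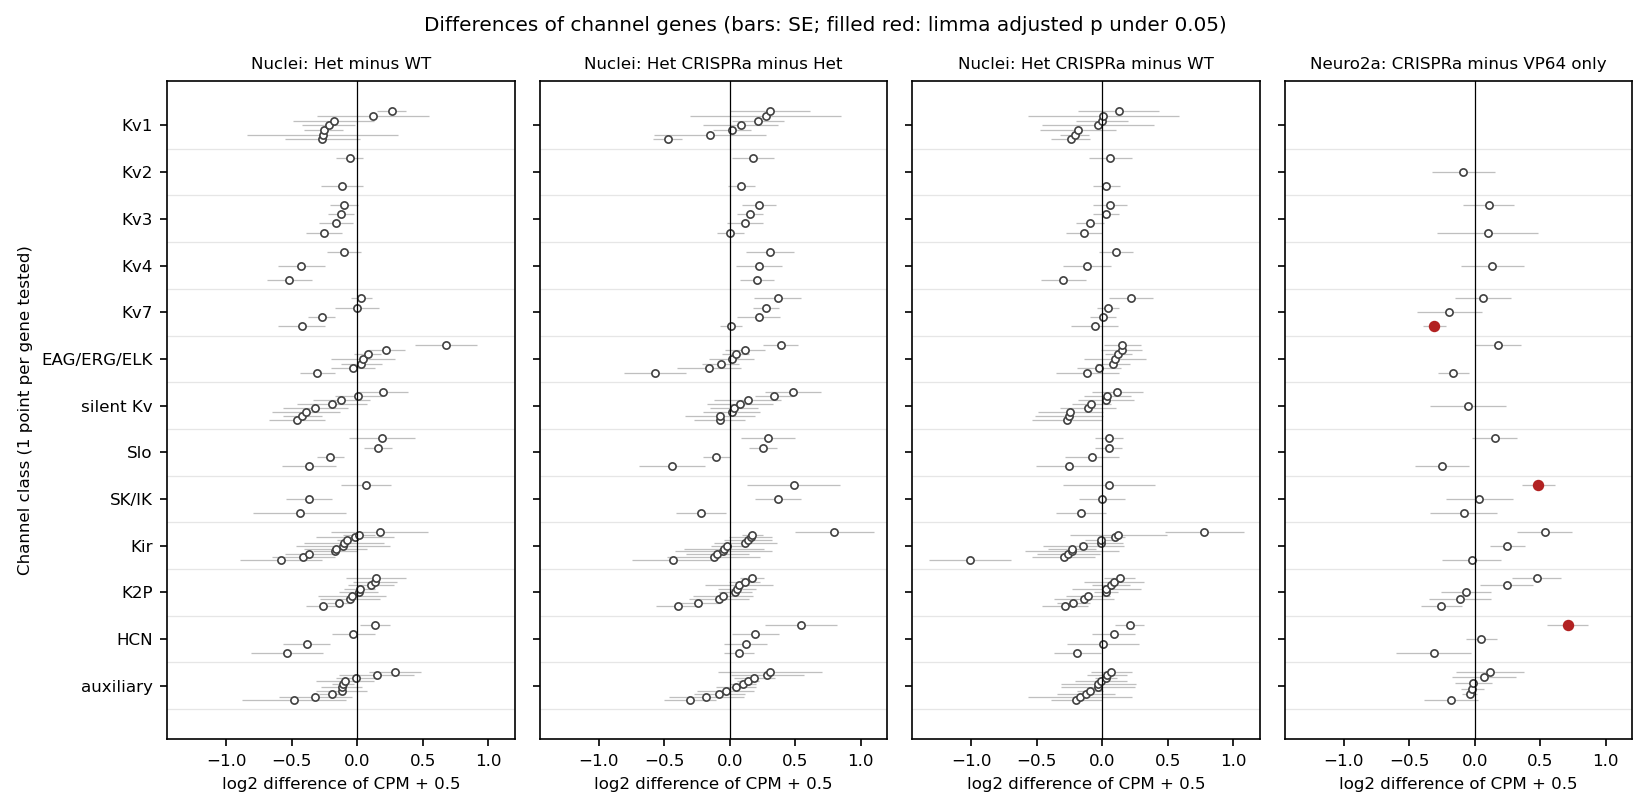
log2 difference of CPM + 0.5 with its SE for each channel gene tested, by class, in 3 comparisons of nuclei and in Neuro2a. Filled red points are the 3 genes called in Neuro2a (Hcn3, Kcnn3, Kcnq5), and no point is filled in the nuclei.

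Het CRISPRa nuclei had higher mean levels than Het nuclei for 52 of the 76 channel genes (68.4%), against 56.8% of all genes, with medians of 0.09 and 0.04; none was called. Since the Het libraries are the lower side of the comparison with WT as well, the signs of these comparisons are linked through those 3 libraries. At an unadjusted p under 0.05 stood 9 genes (11.8%), against 5.25% of all genes, and this count too turned on single libraries. It was 2 (2.67%, against 3.08% of all genes) without Het CRISPRa replicate 2, 3 (3.95%, against 3.14%) without Het replicate 1, 5 (6.67%, against 3.83%) without Het CRISPRa replicate 1 and 21 (27.6%, against 16.8%) without Het replicate 3. The groups did not overlap for 11 genes (14.5%), against 9.98% of all genes: 8 were higher (10.5%, against 5.37%) and 3 lower (3.95%, against 4.61%). The 8 were Kcnh7, Kcnq5, Kcnj16, Kcnj9, Kcnn1, Kcnt2, Kcnip3 and Kcns2, and the 3 were Kcna2, Kcnh5 and Kcnk3. Kcnj16 reached 0.5 CPM in Het CRISPRa alone, so it was tested only through the group where it was high. All tested HCN and Kv4 genes lay above 0 under each scaling. All tested Kv3 genes lay above 0 as deposited, but Kcnc1 lay below 0 under both rescalings.

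Kcna2 was the channel gene with the smallest p in Het CRISPRa against Het nuclei. It had 117, 115 and 96.8 CPM in Het CRISPRa, against 157, 168 and 133 CPM in Het, and every Het CRISPRa library lay below every Het library (-0.47 ± 0.11, limma adjusted p = 0.323). The adjusted p ranged from 0.0573 to 0.938 under the alternatives tried. Kcna2 was also lower than in the WT libraries, which stood at 130, 126 and 124 CPM (-0.21, adjusted p = 1).

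Kcnh5 had 1.55, 1.80 and 2.06 CPM in Het CRISPRa, against 3.26, 2.30 and 3.28 CPM in Het, apart again (-0.57 ± 0.24). The WT libraries at 1.55, 1.52 and 1.87 CPM overlapped those of Het CRISPRa. Kcnk2 (TREK-1, a stretch-sensitive leak channel) differed by -0.39, Kcnu1 by -0.44 and Kcnab3 by -0.30, with adjusted p above 0.05.

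On the higher side, Kcnh7 had 110, 116 and 98.7 CPM in Het CRISPRa, against 66.7, 91.2 and 92.0 CPM in Het (0.39 ± 0.13), and the WT libraries stood at 101, 93.9 and 112 CPM. Its neighbour Gca, which overlaps it in the annotation, lay between 30.6 and 47.5 CPM in nuclei. Kcnq5 had 90.1, 103 and 98.6 CPM in Het CRISPRa, against 82.4, 76.1 and 82.0 CPM in Het (0.28 ± 0.10), and differed from WT by 0.01. In these nuclei Het CRISPRa lay above Het, and in Neuro2a CRISPRa lay below VP64 only; the 2 systems were not compared by a test. Kcnt2 differed by 0.25 and Kcng1 by 0.34, neither called.

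Against WT nuclei, 35 channel genes lay above 0 and 41 below in Het CRISPRa nuclei, with a median of -0.011 against -0.019 over all genes, and none was called. Under median-of-ratios scaling the median was 0.011 and 52.6% lay above 0. At an unadjusted p under 0.05 stood 2 genes (2.63%), against 1.77% of all genes, and 0 to 3 with 1 library left out. The groups did not overlap for 8 genes (10.5%), against 7.13%: Kcnh2, Kcnd1 and Kcnj16 were higher (3.95%, against 2.68%) and 5 genes lower (6.58%, against 4.46%), among them Kcna2, Kcnd2, Kcnk1 and Kcnj10. The 2 genes at an unadjusted p under 0.05 were Kcnj16 and Kcnj10, Kir subunits that are known to assemble with each other in astrocytes. They stood on opposite sides. Kcnj16 reached 0.5 CPM in Het CRISPRa alone and Kcnj10 in WT alone, so each was tested only through the group where it was high. With the filter at 1 CPM the count was 0 of 71 channel genes, against 1.64% of all genes.

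Kcnj10 (Kir4.1) had 0.460, 0.124 and 0 CPM in Het CRISPRa, 0.296, 0.424 and 0.497 CPM in Het and 0.716, 1.17 and 0.708 CPM in WT nuclei (Het CRISPRa minus WT -1.01 ± 0.31, limma adjusted p = 1). That is 0 to 8 reads a library in Het CRISPRa, 5 to 10 in Het and 11 to 23 in WT. Kcnj16 (Kir5.1) had 0.747, 1.24 and 0.557 CPM in Het CRISPRa, 0.178, 0.424 and 0.199 CPM in Het and 0.418, 0.152 and 0.257 CPM in WT (0.80 ± 0.30 against Het and 0.78 ± 0.30 against WT), or 10 to 20 reads in Het CRISPRa and 3 to 7 in Het and in WT. Summed astrocyte markers were 251 to 280 CPM in Het CRISPRa, 231 to 289 in Het and 252 to 277 in WT, with none called. Aqp4, 1 of these markers, was above 0 in every library. The part of astrocyte markers in these values was not tested.

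Kcnd2 was also lower in Het CRISPRa, at 29.0, 26.5 and 23.2 CPM, than in WT nuclei at 31.6, 30.3 and 34.9 CPM, without overlap (-0.30). Kcnk1 had 36.9, 34.1 and 29.8 CPM in Het CRISPRa, against 40.7, 38.5 and 38.3 CPM in WT (-0.22), and Kcna6 differed by -0.24. On the higher side Hcn3, the gene called in Neuro2a, had 57.4, 59.7 and 66.0 CPM in Het CRISPRa, against 58.3, 51.6 and 48.6 CPM in WT, and the groups overlapped (0.21). Kcnh3 differed by 0.12 and Kcnj9 by 0.10. The authors' deposited tables call 0 channel genes in each of the 3 nuclei comparisons.

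**Figure D4:**
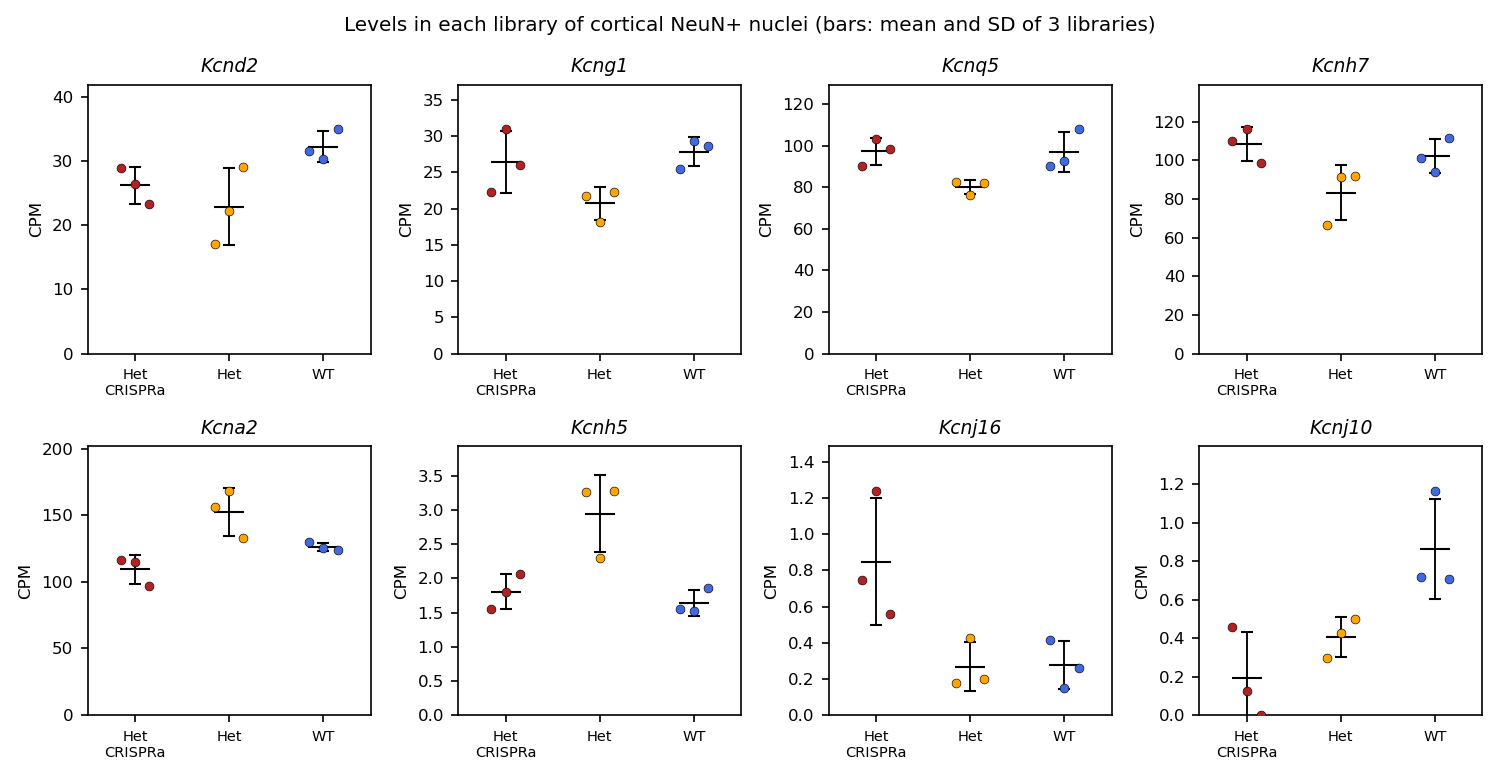
CPM in each library of cortical NeuN+ nuclei for 8 channel genes, with Het CRISPRa, Het and WT from left to right and the mean and SD of 3 libraries. Kcna2 in Het CRISPRa lies below both other groups, and Kcnj16 and Kcnj10 rest on fewer than 24 reads a library.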

How the data were processed

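The authors sequenced polyA RNA and deposited CPM per gene (reads scaled to a common library total); per the submitters' processing notes, STAR 2.7.8a, featureCounts, R 4.4, DESeq2 1.44 and mouse builds mm39 and GRCm39 were used. The authors also deposited tables per comparison with a log2 fold change, its SE and test statistic (a score), p-values and a mean normalised signal; these served only as a side check. Values were whole multiples of the value of 1 read (within 0.01) for 70.8% to 73.1% of positive entries in Neuro2a and 79.8% to 82.4% in nuclei, so whole reads could not be recovered and no count test was run.

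log2(CPM + 0.5) was fitted with limma 3.58.1 (trend) in R 4.3.3, the nuclei groups sharing 1 fit, and adjusted by Benjamini-Hochberg over 14398 genes in Neuro2a and 18967 in nuclei. Tables and figures used Python 3.11.15 with numpy 2.4.6, pandas 2.3.3, scipy 1.17.1 and matplotlib 3.10.9. The fit was tested on simulated data in which 100 genes changed 2-fold and 100 changed 1.5-fold. For Neuro2a it recovered 90% of the 2-fold and 81% of the 1.5-fold changes. For the 3 nuclei comparisons it recovered 68% to 72% of the 2-fold changes but 17% to 31% of the 1.5-fold changes. Changes of that smaller size would thus mostly be missed in nuclei. Genes with few reads were not among those changed. Exon lengths, gene spans and overlaps came from GENCODE for GRCm38 by Ensembl ID and promoters from RefSeq for GRCm38.p6, with entries for 66 of the 94 genes; no coordinate came from the files.

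Genes described by name were those called, up to 5 on each side of each comparison by p, those whose groups did not overlap, and the 3 highest of each class; a few of these are not reported here. The channel genes and lists were chosen with earlier results of these data known. Same-numbered Neuro2a libraries deviated together (r = 0.305 to 0.499; -0.0708 to 0.0229 once set means were removed), so the replicate number pairs them through the set. A fit with that block called 31.3% of all genes in place of 15.0%, and the same 3 channel genes. With the library set as a covariate instead, 3593 genes were called higher and 2092 lower, and again the same 3 channel genes.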

Additional observations from a re-analysis of the deposited data

Results flagged for a closer look

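In groups of 6 Neuro2a libraries, 16 genes (Scn2a and the channel genes described for Neuro2a) in 32 groups were searched for a library far from the rest, and chance alone marks about 1 in 20 groups. Hcn3 in VP64-only replicate 5 stood at 4.48 CPM, apart from the other 5 VP64-only libraries. Kcnk6 in CRISPRa replicate 3 stood at 1.67 CPM, apart from the other 5 CRISPRa libraries.

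The change from VP64 only to CRISPRa differed between library sets for Kcnh2 and Hcn4, by limma's interaction test with Benjamini-Hochberg adjustment over all genes. The change in set 8 minus the change in set 7 was 0.56 for Kcnh2 and 0.67 for Hcn4.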

How the results depend on the processing

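No channel gene was called in the 3 nuclei comparisons under any alternative run. In Neuro2a the 3 called genes became 1 with no filter, 6 in set 7 alone and under either rescaling of it, and 2 to 4 with 1 library left out. The 4 interactions became 2 under median-of-ratios and 2 under quantile scaling, and 2 to 4 with 1 library left out; Kcnh2 and Hcn4 passed in all 17 fits run for each. Signs reversed in set 8 alone for Hcn4 (0.0188) and Kcnh2 (0.12, and 0.0935 with median-of-ratios and 0.0912 with quantile scaling), and for Kcnj12 with quantile scaling (-0.0199). The cause was not tested. Of the other values for single genes, 925 kept direction and side of the threshold, 42 lost it and 9 passed it.

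With the replicate number as a block, Neuro2a calls moved to 4513 genes, against 2166 without it, channel genes staying at 3 and the interactions at 4. In nuclei, pairs of the same number correlated at -0.110 to 0.418 and so share only a number: the block called 2 genes in Het against WT, 31 in place of 8 in Het CRISPRa against Het, and 0 channel genes. Alternatives with a striatal marker covariate, and with 1 set rescaled, were added after seeing the data. Depth limits genes under about 0.5 CPM, and 3 libraries a group limit the nuclei.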

Other observations

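Beyond the channel genes themselves, partners of potassium channels and proteins that transport potassium were read in 2 lists. Of 15 channel partners listed for Neuro2a, 11 were tested, and 1 was called higher and 1 lower in CRISPRa against VP64 only (limma, Benjamini-Hochberg), against 10.0% higher and 5.02% lower over all genes tested. Tmem175, a lysosomal potassium and proton channel, had 18.4, 15.4 and 16.5 CPM in CRISPRa against 7.49, 9.66 and 9.59 CPM in VP64 only of set 7, and 8.89, 11.4 and 10.98 CPM in CRISPRa against 8.84, 8.23 and 7.31 CPM in VP64 only of set 8 (0.61 ± 0.16, adjusted p = 0.0230). The groups were apart within each set, and the change was smaller in set 8 (-0.54, adjusted p = 0.0364). Dlg2 (PSD-93, a scaffold that clusters Kv1 and Kir2 channels) was lower (-0.43 ± 0.12, adjusted p = 0.0275). Its fall was smaller in set 8 (difference between sets 0.36, limma interaction adjusted p = 0.0497). The change of Dlg1, not called over both sets, also differed between sets (0.16, adjusted p = 0.0369). Of the sodium pumps and potassium-chloride cotransporters 0 of 9 tested were called, while the change differed between sets for Slc12a7 (0.59, adjusted p = 7.95e-05). In nuclei 0 of 19 partners and 0 of 10 transport genes were called in each comparison.

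Summed striatal neuron markers varied between the nuclei libraries, and 3 channel genes chosen after their values were seen are set beside them. The summed markers were 548, 382 and 614 CPM in Het CRISPRa, 181, 433 and 734 in Het and 401, 429 and 891 in WT, with 0 of 8 called. Kcnn3 had 24.2, 30.4 and 17.2 CPM in Het CRISPRa, 9.19, 15.99 and 30.0 in Het and 16.9, 21.3 and 31.4 in WT. Kcna5 had 0.919, 1.24 and 1.23 CPM in Het CRISPRa, 0.119, 0.545 and 3.23 in Het and 0.656, 0.608 and 2.77 in WT. Both were highest in replicate 3 of Het and of WT, where the marker sum of these groups was highest. In Het CRISPRa the marker sum was also highest in replicate 3, but the Kcnn3 value there was the lowest of the group. The Kcna5 values of Het CRISPRa replicates 2 and 3 were nearly equal, at 1.24 and 1.23 CPM. Kcnn2 was lowest in replicate 3 of every group, though in Het CRISPRa by a small margin only. It stood at 88.4, 84.6 and 84.2 CPM in Het CRISPRa, 128, 106 and 74.1 in Het and 108, 111 and 72.8 in WT. A limma fit with the striatal marker sum as a covariate, added after seeing the data, called 0 channel genes in each nuclei comparison. At an unadjusted p under 0.05 it left 11 channel genes in Het against WT (8 without it). The count was 9 in Het CRISPRa against Het (9 without it) and 3 in Het CRISPRa against WT (2 without it). Over all genes it called 4 higher and 39 lower in Het CRISPRa against Het, in place of 1 and 7. Its values for Kcnn3, Kcna5 and Kcnn2 are not reported here, and nothing is concluded about them.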
